A study of Homo sapiens with 6 samples.

Results

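The canonical NF-kB pathway was followed in A549 cells through 10 genes, taken by their gene names from the 58735 genes of the deposited count table. They were the subunit genes NFKB1 and RELA and the genes of 8 feedback inhibitors, namely NFKBIA, NFKBIB, NFKBIE, NFKBIZ, BCL3, TNFAIP3, TNIP1 and ZC3H12A. A549 is an established human lung adenocarcinoma cell line, grown here in RPMI1640 medium with fetal bovine serum. In the study it was transduced with a lentiviral vector that carried the IL17D reading frame (IL17D-overexpressing cells) or with the empty vector (control cells). A PGK promoter drives the insert in this vector, which also encodes GFP. The comparison is thus between transduced cells, and the methods do not give the time from transduction to RNA isolation. RNA was sequenced from 3 libraries of each group. Neither the labels nor the methods say whether replicate libraries represent separate cultures or transductions, so p-values measure only the spread between these libraries, which may be technical.

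NF-kB is a family of dimeric transcription factors. In the canonical pathway, p50, which is cut from the NFKB1 product, pairs with p65, the RELA product, and the dimer is held in the cytoplasm by the IkB proteins until the IkB kinase marks these for destruction. Freed dimers switch on inflammatory genes and also the genes of their own inhibitors, of which NFKBIA and TNFAIP3 are the best known, so a rise of these transcripts is commonly read as a sign of pathway activity. IL-17 receptors signal to NF-kB through the adaptor ACT1 (TRAF3IP2), and NFKBIZ and ZC3H12A are well-known genes of the response to IL-17A.

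Such feedback can act through short sites in the DNA near the start of a gene, which NF-kB dimers can bind. Binding was not measured here. RefSeq windows of 300 bases (250 before and 50 after an annotated start, build GRCh38.p14) were listed for 9 of the 10 genes, all but NFKBIE. The kB consensus was searched on both strands. It was found in 8 of the 14 windows and in 7 of the 9 genes, against 11.3% of all 35116 listed windows. Of all listed genes, 3619 of 27305 held a match. Sets counted further below also held it, in 55.6% of the windows of other REL and IkB genes. The shares were 42.6% for NF-kB target genes, 33.3% for other brakes, 18.2% for messenger RNA decay genes and 11.1% for kinases and adaptors. No match was found in the windows of RELA and ZC3H12A, and the match of BCL3 lay behind the start. A match is a description of these letters and not a bound site. The following stretches of 120 bases are shown because they place the matches of 5 of the genes beside those of NFKB2, a gene outside the group of 10 that rose. That of NFKBIZ runs from 250 to 131 bases before an annotated start, and the others from 120 to 1. Those of TNIP1 and NFKB2 lie inside the gene models of the count table. The TNFAIP3 stretch begins before its gene model, which starts at 137867188, but its matches lie inside that model. The NFKB1 stretch runs past the start of its gene model at 102501329, and its match lies before that start. NFKB1, TNIP1 and NFKB2 each have another listed window without a match. Letters are 5′ to 3′ on the strand of the gene, and matches are in capitals. Of the 3 matches in the NFKB2 stretch, 2 overlap, and a further window of NFKB2 also held matches.
NFKBIA, chr14:35404750-35404869, minus strand: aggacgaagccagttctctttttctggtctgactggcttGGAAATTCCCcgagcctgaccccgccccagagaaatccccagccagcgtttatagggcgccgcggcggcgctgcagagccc
TNFAIP3, chr6:137867139-137867258, plus strand: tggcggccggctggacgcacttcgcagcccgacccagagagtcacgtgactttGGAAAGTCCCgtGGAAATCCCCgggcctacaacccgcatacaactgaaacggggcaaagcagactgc
NFKBIZ, chr3:101827740-101827859, plus strand: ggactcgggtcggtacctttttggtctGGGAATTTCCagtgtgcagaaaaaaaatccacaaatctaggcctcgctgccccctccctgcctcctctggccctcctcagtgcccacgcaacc
NFKB1, chr4:102501239-102501358, plus strand: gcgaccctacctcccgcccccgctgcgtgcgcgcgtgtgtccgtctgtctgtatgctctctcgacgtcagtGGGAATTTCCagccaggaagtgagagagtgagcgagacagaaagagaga
TNIP1, chr5:151081035-151081154, minus strand: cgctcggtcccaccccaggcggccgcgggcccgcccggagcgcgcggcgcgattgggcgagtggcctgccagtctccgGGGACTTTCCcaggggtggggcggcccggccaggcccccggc
NFKB2, chr10:102394458-102394577, plus strand: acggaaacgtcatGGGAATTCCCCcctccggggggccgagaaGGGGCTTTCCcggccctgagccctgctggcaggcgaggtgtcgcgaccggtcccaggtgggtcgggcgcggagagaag

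The libraries held 14319398 to 16521021 counts on genes. IL17D (ENSG00000172458) had 18 to 34 counts in the control libraries and 26772 to 32155 in the IL17D-overexpressing libraries, which fits the labels. Of 6 epithelial markers, KRT8, KRT18 and KRT7 were the highest. EPCAM was near 1 CPM (counts scaled to the library by TMM, as edgeR's cpm gives them) and KRT19 under it. Of 14 markers of leukocytes, endothelium and fibroblasts, PTPRC and CD3E had no count, and only CD14 and COL1A1 had enough counts to be tested. CDH1, which encodes E-cadherin, fell from 43.4 ± 2.65 to 35.7 ± 3.32 CPM (SD, n = 3; adjusted p = 0.031 from edgeR), a call lost without control replicate 2 or 3 or IL17D replicate 1 or 2, with adjusted p-values of 0.077, 0.135, 0.269 and 0.081 from edgeR, and with DESeq2 on the same genes (adjusted p = 0.066). The part of this difference in the results below was not tested.

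No change passed the test in any of the 10 genes. All were among the 15754 genes with enough counts for the test, and 0 had an adjusted p under 0.05 (quasi-likelihood test of edgeR, Benjamini-Hochberg adjustment over all tested genes), where 1.58% of tested genes had one, 0.673% with a rise and 0.908% with a fall. At an unadjusted p under 0.05, the count was again 0 of 10, against 11.6% of tested genes, and it was 0 of 10, against 6% of tested genes, when a log2 fold change above 0.2 in size was also required. DESeq2 and limma voom also gave 0 of 10 under each of these rules. The genes gave 8 log2 fold changes above 0 and 2 below, with a median of 0.052 beside a median of -0.00044 over all tested genes. Their median size, without sign, was 0.057, and it was 0.064 over tested genes in the same range of mean CPM. In 1 of the 10 genes, BCL3, the groups did not overlap, against 15.8% of tested genes. The libraries are bulk, so fewer cells with a transcript and less of it per cell cannot be told apart.

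**Figure D1:**
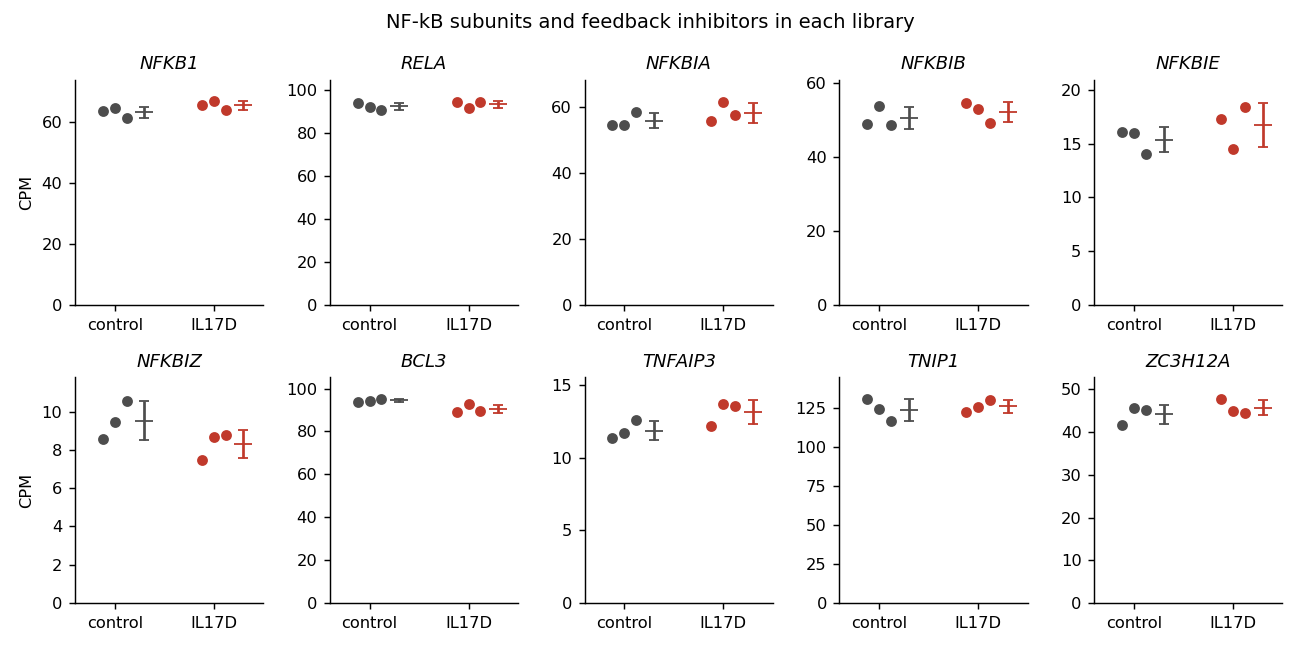
CPM (vertical axis from 0) of the 10 genes in each control and IL17D-overexpressing (IL17D) library, with 3 points a group and the mean ± SD beside them. The groups overlap in every panel but that of BCL3, where the 3 IL17D-overexpressing libraries lie between 89.2 and 92.6 CPM and the 3 control libraries between 93.8 and 95.3.

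The 2 subunit genes had nearly the same level in both groups. NFKB1 (ENSG00000109320, chromosome 4 of GRCh38, 102501329 to 102617302) had 63.5, 64.6 and 61.2 CPM in control replicates 1, 2 and 3 and 65.5, 66.8 and 64.0 CPM in the IL17D-overexpressing replicates. The lowest IL17D-overexpressing library lay below the highest control library. Its log2 fold change was 0.05 (95% interval -0.06 to 0.16, adjusted p = 0.789 from edgeR). RELA (ENSG00000173039, chromosome 11, 65653596 to 65663094) had 94.1, 92.5 and 91.0 CPM in control libraries and 94.4, 91.7 and 94.6 CPM in IL17D-overexpressing libraries. All 6 values of RELA lay within a few CPM of each other and the groups overlapped. Its log2 fold change was 0.016, with an interval from -0.08 to 0.11 (adjusted p = 0.946 from edgeR). A lincRNA on the other strand, AP001362.2, overlaps RELA and had 52 to 90 counts a library beside 1338 to 1553 for RELA, and whether strand was used in counting is not given in the sources used here.

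NFKBIA, NFKBIB and NFKBIE encode the IkB proteins alpha, beta and epsilon, which mask the nuclear localization signals of NF-kB dimers. NFKBIA (ENSG00000100906, chromosome 14, 35401511 to 35404749) is the fast-acting arm of the feedback. It had 54.5, 54.7 and 58.6 CPM in control libraries and 55.7, 61.7 and 57.6 CPM in IL17D-overexpressing libraries. One control library was above 2 of the 3 IL17D-overexpressing libraries. The log2 fold change was 0.06 (interval -0.06 to 0.18, adjusted p = 0.767 from edgeR), and in percent of the control level the interval ran from -3.94 to 13.4.

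NFKBIB (ENSG00000104825, chromosome 19, 38899700 to 38908893) is regarded as the slower and less inducible inhibitor. It had 49.0, 54.0 and 48.7 CPM in control libraries and 54.7, 53.1 and 49.4 CPM in IL17D-overexpressing libraries, and the groups overlapped. The log2 fold change was 0.05 (interval -0.07 to 0.18, adjusted p = 0.825 from edgeR). SIRT2 overlaps it on the other strand with 218 to 330 counts a library, beside 705 to 899 for NFKBIB, and 9.29% of the 31-base stretches of NFKBIB transcripts also occur in transcripts of other genes, the highest share of the 10. NFKBIE (ENSG00000146232, chromosome 6, 44258166 to 44265788) had 16.1, 16.0 and 14.1 CPM in control libraries and 17.3, 14.5 and 18.4 CPM in IL17D-overexpressing libraries. IL17D replicate 2 lay among the control libraries, and the other two lay above all of them. The log2 fold change was 0.12 (interval -0.09 to 0.34, adjusted p = 0.737 from edgeR). Single libraries moved this value, which was 0.22 without IL17D replicate 2, 0.06 without control replicate 3 and 0.05 without IL17D replicate 3, and in none of these was it called.

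NFKBIZ and BCL3 encode atypical IkB proteins, which work in the nucleus with p50 or p52 dimers and can raise as well as lower transcription. They had the 2 log2 fold changes below 0. NFKBIZ (ENSG00000144802, chromosome 3, 101827991 to 101861022) had 8.55, 9.47 and 10.6 CPM in control libraries and 7.48, 8.70 and 8.76 CPM in IL17D-overexpressing libraries. It was the gene with the fewest counts, 123 to 170 a library, and its groups overlapped. Its log2 fold change of -0.20 was the largest in size of the 10 and had the widest interval, from -0.47 to 0.07, with an unadjusted p of 0.145 and an adjusted p of 0.636 from edgeR. Leaving out control replicate 3 gave -0.12 and leaving out IL17D replicate 1 gave -0.13, and TNFAIP3 then had the larger size with 0.19 and 0.20. BCL3 (ENSG00000069399, chromosome 19, 44747705 to 44760044) had 93.8, 94.4 and 95.3 CPM in control libraries and 89.2, 92.6 and 89.7 CPM in IL17D-overexpressing libraries. Every IL17D-overexpressing library was lower than every control library, with a fitted change of -4.25% and an interval from -10.3% to 2.24% (log2 fold change -0.06, adjusted p = 0.679 from edgeR), so this order did not pass the test.

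The remaining inhibitors act upstream of the IkB proteins or on messenger RNA. TNFAIP3 encodes A20, an enzyme that edits ubiquitin chains on signaling adaptors, and TNIP1 encodes ABIN1, a ubiquitin-binding partner of A20. TNFAIP3 (ENSG00000118503, chromosome 6, 137867188 to 137883312) had 11.3, 11.7 and 12.6 CPM in control libraries and 12.2, 13.7 and 13.5 CPM in IL17D-overexpressing libraries. Its log2 fold change was 0.15 (interval -0.08 to 0.37, adjusted p = 0.692 from edgeR), and IL17D replicate 1 lay below the highest control library. TNIP1 (ENSG00000145901, chromosome 5, 151029945 to 151093577) was the gene with the most counts. It had 130.3, 124.0 and 116 CPM in control libraries and 122, 125 and 130.1 CPM in IL17D-overexpressing libraries, so both the highest and the lowest of the 6 libraries were control libraries. Its log2 fold change was 0.03 (interval -0.07 to 0.12, adjusted p = 0.901 from edgeR). ZC3H12A encodes regnase-1, an RNase that destroys the messenger RNAs of inflammatory genes, NFKBIZ among them. ZC3H12A (ENSG00000163874, chromosome 1, 37474552 to 37484379) had 41.7, 45.6 and 45.1 CPM in control libraries and 47.7, 44.9 and 44.4 CPM in IL17D-overexpressing libraries. The groups overlapped, and the log2 fold change was 0.05 (interval -0.08 to 0.18, adjusted p = 0.840 from edgeR).

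Like the p-values, the intervals measure only the spread between these libraries, which may be technical. Within that limit they say how large a change the counts could have missed. In 7 of the 10 genes the 95% interval lay within 20% of the control level in both directions, and 73.3% of tested genes in the same range of mean CPM had intervals that narrow. The exceptions were NFKBIE, TNFAIP3 and NFKBIZ, the 3 genes with the fewest counts, whose intervals reached 26.5%, 29.5% and -27.9%. In the other direction these 3 intervals ended at -6.36% for NFKBIE, -5.60% for TNFAIP3 and 5.15% for NFKBIZ. A change beyond 30% in either direction lay outside all 10 intervals, which are separate 95% intervals and not a joint one.

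**Figure D2:**
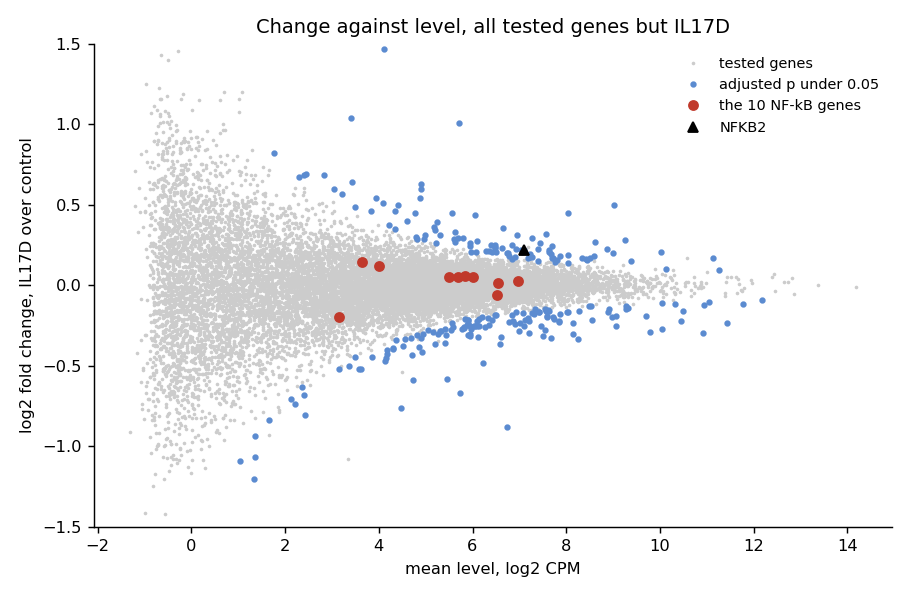
Log2 fold change of each tested gene (vertical axis, IL17D-overexpressing over control) against its mean level in log2 CPM (horizontal axis). Grey points are tested genes, blue points have an adjusted p under 0.05, red points are the 10 NF-kB genes and the black triangle is NFKB2. The red points lie between -0.20 and 0.15, inside the grey cloud, IL17D is left out and 11 genes lie beyond the plotted range of 1.5 in size.

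Expressed per kilobase of gene model, to compare genes, the levels spanned 18.9-fold. The length of the transcripts present in these cells was not measured. The order below and the ratio at the end of this paragraph depend on the deposited length. BCL3 was the highest, with 29.2 ± 0.229 CPM per kilobase in control cells and 27.9 ± 0.573 in IL17D-overexpressing cells (SD, n = 3). NFKBIA (23.6 ± 0.966 and 24.6 ± 1.29), NFKBIB (21.8 ± 1.27 and 22.5 ± 1.16) and TNIP1 (21.3 ± 1.20 and 21.7 ± 0.697) followed. The ranges of NFKBIA and NFKBIB over the 6 libraries overlapped, as did those of NFKBIB and TNIP1, so the order among these neighbours is not resolved. Next came RELA (16.9 ± 0.286 and 17.1 ± 0.302), ZC3H12A (14.1 ± 0.693 and 14.6 ± 0.567) and NFKB1 (10.1 ± 0.276 and 10.5 ± 0.224). NFKBIE (5.95 ± 0.439 and 6.49 ± 0.791), TNFAIP3 (2.35 ± 0.126 and 2.60 ± 0.166) and NFKBIZ (1.61 ± 0.171 and 1.41 ± 0.123) were the lowest. No other neighbours overlapped in range. The levels of NFKBIA, NFKBIB and NFKBIE, all per kilobase, summed to 50.3, 52.5 and 51.1 in control libraries. In IL17D-overexpressing libraries they summed to 53.7, 54.5 and 52.7. Those of NFKB1 and RELA summed to 27.37, 27.26 and 26.44 and to 27.75, 27.45 and 27.54. In both sums every IL17D-overexpressing library was above every control library, which was not tested. Of all tested genes, 15.8% had groups that did not overlap. The first sum was 1.84, 1.93 and 1.93 times the second in control libraries. It was 1.94, 1.99 and 1.91 times in IL17D-overexpressing libraries, and the groups overlapped in this ratio. The CPM summed over all 10 genes overlapped between the groups.

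**Figure D3:**
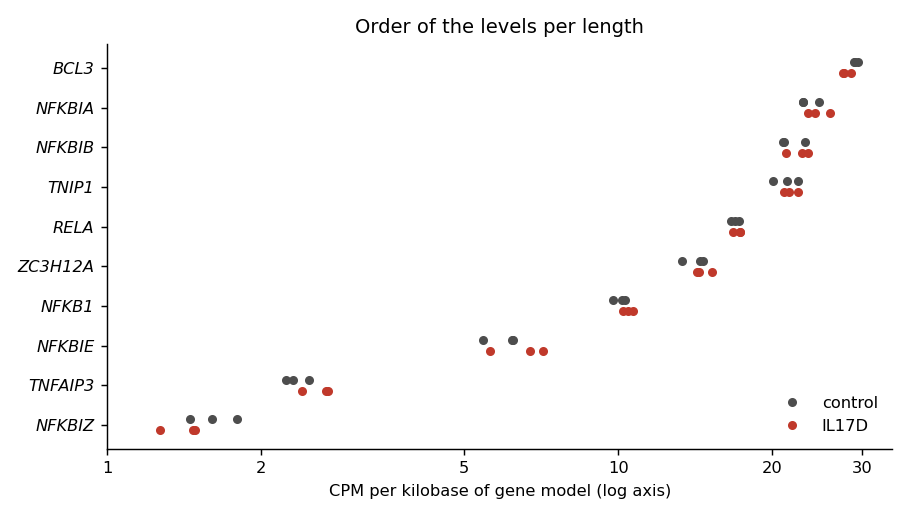
CPM per kilobase of gene model (horizontal log axis) of the 10 genes in each of the 3 control (grey) and 3 IL17D-overexpressing (red) libraries, ordered by mean level. BCL3 is at the top with 27.5 to 29.4 and NFKBIZ at the bottom with 1.27 to 1.79.

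Other genes of the pathway were counted by their roles, to be read against the 1.58% of all tested genes with an adjusted p under 0.05, the 11.6% with an unadjusted p under 0.05, and the 7858 tested genes with log2 fold changes above 0 and 7896 below. Of 21 kinase and adaptor genes, among them CHUK, IKBKB and IKBKG of the IkB kinase complex, TRAF6 and TRAF3IP2, all were tested and 0 had an adjusted p or an unadjusted p under 0.05 in edgeR's test, with a median log2 fold change of 0.028. DESeq2 on the same genes and limma voom also gave 0 at both thresholds. Of 14 other brakes on the pathway, such as CYLD and OTULIN, 13 were tested and 0 were called at either threshold by any of the 3 tools, with a median of -0.055 and 10 log2 fold changes below 0. Of 11 genes of messenger RNA decay and stability, 10 were tested and 0 had an adjusted p under 0.05 with any of the 3 tools. There the median was 0.10, 9 log2 fold changes were above 0, and RC3H2, which encodes a relative of roquin, alone had an unadjusted p under 0.05 (0.023, adjusted p = 0.325 from edgeR).

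Of the other REL and IkB genes, namely REL, RELB, NFKB2, NFKBID and NFKBIL1, 1 of 5 passed. NFKB2 (ENSG00000077150) encodes p100, the precursor of p52 and an inhibitor of RELB dimers, and is itself a known NF-kB target gene. It had 128, 127 and 128 CPM in control libraries and 151, 148 and 146 CPM in IL17D-overexpressing libraries. Every IL17D-overexpressing library lay above every control library. Of all tested genes, 15.8% had groups that did not overlap. The SD of the control libraries, 0.383 CPM, was below counting error at their 1838 to 2077 counts, so it understates their spread. The log2 fold change of NFKB2 was 0.22 (interval 0.13 to 0.30, adjusted p = 0.0016 from edgeR). RELB (ENSG00000104856), the partner of p52, had 33.6, 28.4 and 25.1 CPM in control libraries and 35.5, 32.2 and 35.7 CPM in IL17D-overexpressing libraries. Control replicate 1 overlapped the other group, and the log2 fold change of 0.25 had an interval from 0.07 to 0.42 but did not pass adjustment (unadjusted p = 0.0065 and adjusted p = 0.179, both from edgeR).

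Whether NFKB2 and RELB moved apart from the canonical subunits was asked of the ratio within each library, 2 ratios chosen after the values were seen. The log2 ratio of NFKB2 to NFKB1 was 1.01 ± 0.042 in control libraries and 1.18 ± 0.029 in IL17D-overexpressing libraries (SD, n = 3), higher in all 3 of the latter. The difference of 0.17 had a two-sided exact permutation p of 0.10, the smallest that 3 libraries against 3 can give. After adjustment over the 2 ratios it was 0.20. No values could have brought this test under 0.05, so it cannot decide the question. The log2 ratio of RELB to RELA was -1.68 ± 0.186 and -1.44 ± 0.057, with overlapping groups and an exact permutation p of 0.20.

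**Figure D4:**
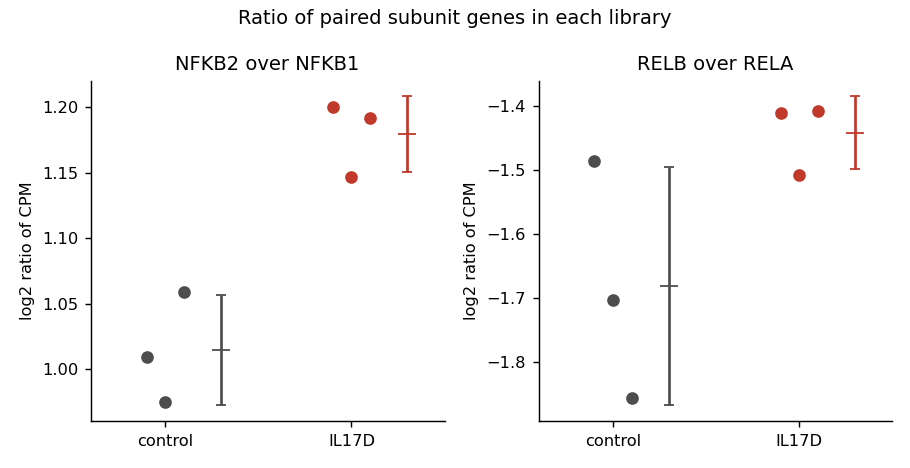
Log2 ratio of CPM (vertical axes, not from 0) of NFKB2 to NFKB1 and of RELB to RELA in each library, with the mean ± SD of 3 libraries a group beside the points. The groups are apart for NFKB2 over NFKB1, at 0.98 to 1.06 and 1.15 to 1.20, and overlap for RELB over RELA.

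Genes that NF-kB is known to switch on did not all move in the same direction. Of a list of 45 such genes outside the 10, which shares 5 genes with the lists above, 33 were tested, 20 with log2 fold changes above 0 and 13 below, and the median was 0.074. An adjusted p under 0.05 was found for 6 of the 33, 4 higher and 2 lower, where 1.58% of all tested genes had one. Before adjustment, 14 of the 33 had a p under 0.05, against 11.6% of all tested genes. With a log2 fold change above 0.2 in size also required, 8 were higher and 2 lower, against 6% of tested genes. Every IL17D-overexpressing library was above every control library in 11 of the 33 and below in 5. Over all tested genes, 15.8% had groups that did not overlap, 1178 above and 1309 below. The list was drawn up with earlier results of these data known. The count at the adjusted threshold was 1 without control replicate 2, NFKB2 alone, and 3 without IL17D replicate 2 or without IL17D replicate 3. IL6 and CXCL10 had no count in any library, which allows up to 0.182 to 0.210 CPM a library and covers counting error only. The means of TNF, CSF2, VCAM1 and SELE lay under that limit in both groups.

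The 4 genes that rose were NFKB2, BIRC3, EFNA1 and PTGS2. BIRC3 (ENSG00000023445), which encodes the ubiquitin ligase cIAP2, rose from 81.9 ± 6.33 to 96.8 ± 2.12 CPM (SD, n = 3; log2 fold change 0.24, adjusted p = 0.0069 from edgeR). EFNA1 (ENSG00000169242), an ephrin ligand, rose from 34.0 ± 1.01 to 40.9 ± 1.27 CPM (SD, n = 3; adjusted p = 0.033 from edgeR). PTGS2 (ENSG00000073756), the inducible cyclooxygenase, rose from 28.0 ± 0.569 to 34.2 ± 2.84 CPM (SD, n = 3; adjusted p = 0.042 from edgeR). In all of them the groups did not overlap. The 2 genes that fell were TNFAIP2 (ENSG00000185215), from 504 ± 11.7 to 455 ± 5.47 CPM, and CSF1 (ENSG00000184371), the macrophage colony-stimulating factor, from 32.8 ± 3.38 to 25.1 ± 1.60 CPM (SD, n = 3; adjusted p = 0.0073 and 0.0070 from edgeR). NFKB2 held in each alternative, and the other calls did not. BIRC3 lost its call without control replicate 1, control replicate 2 or IL17D replicate 3 (adjusted p = 0.071, 0.065 and 0.067 from edgeR). TNFAIP2 lost it without control replicate 2 or IL17D replicate 1 (0.076 and 0.068), and CSF1 without control replicate 2 or IL17D replicate 2 (0.109 and 0.060). EFNA1 kept it in 7 and PTGS2 in 6 of 14 alternatives, with adjusted p-values up to 0.189 and 0.268. With all libraries kept, DESeq2 on the same genes gave adjusted p-values of 0.058 for EFNA1 and 0.079 for PTGS2, and limma voom gave 0.051 for PTGS2.

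The other genes of this list with the highest mean CPM did not pass adjustment. BCL2L1, which encodes the survival protein BCL-XL, had 238 ± 4.77 CPM in control cells and 238 ± 3.45 CPM in IL17D-overexpressing cells. IER3, an early response gene, had 208 ± 4.25 and 218 ± 11.0 CPM (SD, n = 3; adjusted p = 0.996 for BCL2L1 and 0.505 for IER3 from edgeR). CFLAR, which encodes the caspase-8 inhibitor cFLIP, had 109 ± 3.50 and 119 ± 2.75 CPM (SD, n = 3), with every IL17D-overexpressing library above every control library. Its log2 fold change was 0.13, with an interval from 0.04 to 0.22 (unadjusted p = 0.0064 and adjusted p = 0.179, both from edgeR).

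**Figure D5:**
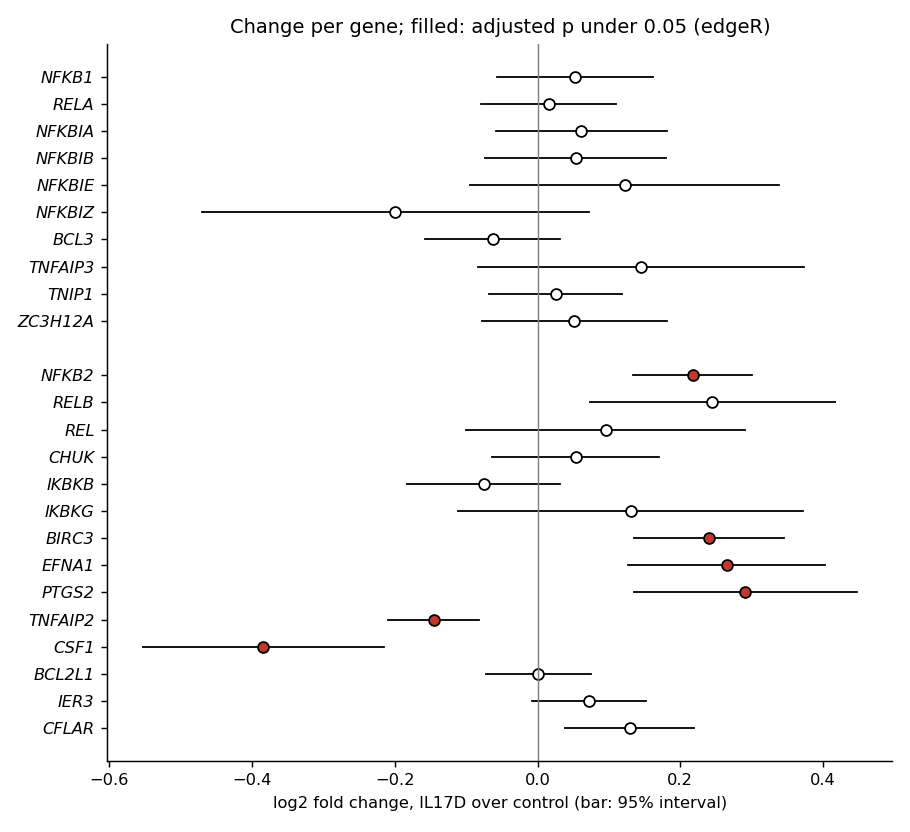
Log2 fold change (horizontal axis, IL17D-overexpressing over control) with its 95% interval for the 10 NF-kB genes (upper block) and for other REL, IkB kinase and NF-kB target genes (lower block). Filled points have an adjusted p under 0.05. All 10 intervals of the upper block hold 0, and NFKB2 in the lower block lies at 0.22 with an interval from 0.13 to 0.30.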

How the data were processed

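The authors deposited 1 table of raw read counts per gene for 6 libraries, without normalization, and no per-sample column was left out. The submitters' processing notes name Bowtie2 and hg38. The counting tool is not given in the sources used here. All 58735 genes had the coordinates of GENCODE release 29 (GRCh38), and the deposited gene model length was used for levels per kilobase. Counts were filtered with edgeR's filterByExpr, scaled by TMM and tested with glmQLFit and glmQLFTest without covariates (R 4.3.3, edgeR 4.0.16). Intervals are 95% intervals from the standard error and the moderated degrees of freedom of this fit. Alternatives used DESeq2 1.42.0, limma 3.58.1 (voom), other filters, a replicate block and leaving out 1 library at a time. A fit on total counts without scaling factors was added after the data were seen. The 10 genes and all lists were chosen with earlier results of these data known. Named were the 10 genes, IL17D, list genes with an adjusted p under 0.05, and the 5 targets with the highest mean CPM. RELB, RC3H2, the genes listed as examples and both ratios were chosen after their values were seen. On simulated counts for this comparison (15479 genes), edgeR recovered 44% of 100 genes changed by 0.25 in log2 and 89% of 100 changed by 0.5, with 4 wrong calls. The changed genes were drawn only from genes above a minimum mean count. The simulated spread followed its trend over level, without a spread particular to each gene, so these shares need not hold for the real libraries. Same-numbered libraries did not deviate together (correlations 0.00997, -0.0119 and -0.0151). Libraries within a group differed by more than counting error (chi-square per degree of freedom 2.19 to 3.36).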

Additional observations from a re-analysis of the deposited data

How the results depend on the processing

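None of the 10 genes was called under any of the 14 alternatives, at either threshold, and the lowest adjusted p of any of them was 0.518 (NFKBIE without IL17D replicate 2, edgeR). TNIP1 changed sign without control replicate 3 (-0.016), and its log2 fold changes without 1 library ran from -0.016 to 0.067. The other 9 kept their sign. With the replicate block, 0 of the 10 genes, 6 of the target genes and 272 of all genes had an adjusted p under 0.05, beside 0, 6 and 249 without it, so the block changed no call among the 10. Over all genes, leaving out 1 library gave 145 to 267 calls at an adjusted p under 0.05 (145 without IL17D replicate 3 and 155 without IL17D replicate 1). An unadjusted p under 0.05 with a log2 fold change above 0.2 in size gave 946 genes, 628 with DESeq2 on the same genes, 575 with DESeq2 and 1446 with edgeR when every gene with a count was tested, and 918 to 1010 without 1 library. Calls among the target genes numbered 1 to 5 without 1 library. BCL2L1, near 0, had -0.0010 with edgeR when every gene with a count was tested, -0.0017 on total counts without scaling factors and -0.012 to 0.017 without 1 library. The cause of these shifts was not tested. NFKBIZ, TNFAIP3 and NFKBIE had the fewest counts of the 10 genes, 123 to 285 a library, and the widest intervals, and the parts of depth and of spread between libraries in these were not separated.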
